A study of Mus musculus with 11 samples.

Results

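The DNA replication genes are the 139 genes whose annotation in the 9-array expression table carries a biological process term containing the words DNA replication. They were read from 188 annotated rows, with the row of highest mean taken for each gene, out of 28944 transcript clusters tested and 22093 genes with a symbol. Of the 139 genes, 70 fall into lists of roles in copying DNA, such as origin licensing, polymerases and the sliding clamp, and the other 69 are regulators, repair genes and genes annotated more loosely. The genes were measured in LSK cells (negative for lineage markers, positive for Sca-1 and Kit), a bone marrow fraction made up of stem cells and multipotent progenitors, sorted by flow cytometry from low-density marrow of C57BL/6 mice. The knockout group is labelled KLF5 KO and the wild-type group KLF5 WT, and samples of both groups are also labelled MxlCre, which names a Cre recombinase under the interferon-inducible Mx1 promoter, so that deletion reaches all interferon-responsive cells and not the sorted cells alone. The sources used here do not give how the Cre was induced, the animals' age or sex, or whether each array is a separate animal. Total RNA was hybridised to Affymetrix Mouse Gene 1.0 ST arrays. Knockout replicates 2 to 5 (n = 4) and wild-type replicates 2 to 6 (n = 5) were normalized together and form the comparison, and knockout replicate 1 and wild-type replicate 1 were normalized apart as a 2-array table. Values are log2 RMA signals, in which 1 unit is a 2-fold change, and signals of different genes come from different probes and are not on a common scale of abundance.

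Replication starts when the origin recognition complex, with Cdc6 and Cdt1, loads the ring-shaped Mcm2 to Mcm7 helicase onto DNA in G1, a step called licensing, which geminin blocks in S phase by binding Cdt1. The helicase is then switched on with Cdc45, the GINS complex and Mcm10, primase and polymerase alpha lay down primers, and polymerases delta and epsilon copy the strands while held by the PCNA clamp. Many of these genes are transcribed at the G1/S transition under E2F factors, so that their summed level in a sorted population follows the share of cells in cycle. Most long-term stem cells are quiescent, whereas the progenitors within the LSK fraction divide.

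Klf5, a zinc-finger transcription factor that binds GC-rich and CACCC-type elements, had signals of 6.72, 6.58, 6.76 and 6.69 in knockout, against 6.77, 6.98, 6.94, 6.98 and 6.77 in wild type. The groups lay next to each other without overlap, and the sources used here do not say which probes the deletion removes. Kit, a defining marker of the fraction, lay between 9.79 and 10.21 in knockout and between 10.09 and 10.38 in wild type, and Ly6a, which encodes Sca-1, between 6.57 and 8.54 in knockout and between 6.85 and 8.29 in wild type. Median signals of the 9 arrays ran from 5.93 to 6.03, and the medians of the negative-control probes from 5.27 to 5.62. Xist and Y-linked signal occurred together in knockout replicates 2 and 5 and wild-type replicate 6. Xist alone was seen in knockout replicates 3 and 4 and wild-type replicate 5, and Y-linked signal alone in wild-type replicates 2, 3 and 4, so that every knockout array carried Xist. Genotype and sex-linked signal are therefore partly confounded in the comparison. Hbb-b1, an adult beta-globin, was at 9.08 and 10.63 in knockout replicates 2 and 5 and at 9.85 and 10.63 in wild-type replicates 2 and 6, against 7.01 to 7.20 in the other knockout arrays and 6.62 to 7.46 in the other wild-type arrays.

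Promoter windows, running from 250 bases before to 50 bases after the annotated start in RefSeq on GRCm38.p6, were found for 110 of the 139 genes. The E2F-like sequence TTTNNCGC, searched on both strands, was present in 26 of them (23.6%) and in 18 of the 56 with a listed role (32.1%), against 7.51% of the 16253 genes on the array with a window. The KLF-like sequence CCNCNCCC, likewise on both strands, was found in 71.8% of the replication genes and in 61.7% of the genes on the array. The median share of G and C was 60.0% in the replication genes and 57.3% in the genes on the array, and CCAAT occurred in 59.1% and 42.1%. The 5 windows below show genes for the loader (Cdt1), the helicase (Mcm5 and Mcm6) and the polymerases (Pola1 and Pold3), with the E2F-like matches in capitals, on the strand of the gene and 5′ to 3′. Cdt1 lies at chr8:122567765-122568064 on the plus strand, Mcm5 at chr8:75109259-75109558 on the plus strand, Mcm6 at chr1:128359656-128359955 on the minus strand, Pola1 at chrX:93632106-93632405 on the minus strand and Pold3 at chr7:100121453-100121752 on the minus strand.
Cdt1: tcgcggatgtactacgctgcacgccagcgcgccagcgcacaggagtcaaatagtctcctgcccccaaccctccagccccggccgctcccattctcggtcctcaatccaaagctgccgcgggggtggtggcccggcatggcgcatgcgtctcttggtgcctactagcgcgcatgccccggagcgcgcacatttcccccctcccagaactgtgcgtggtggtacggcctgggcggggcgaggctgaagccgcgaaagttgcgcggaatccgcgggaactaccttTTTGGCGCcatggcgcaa
Mcm5: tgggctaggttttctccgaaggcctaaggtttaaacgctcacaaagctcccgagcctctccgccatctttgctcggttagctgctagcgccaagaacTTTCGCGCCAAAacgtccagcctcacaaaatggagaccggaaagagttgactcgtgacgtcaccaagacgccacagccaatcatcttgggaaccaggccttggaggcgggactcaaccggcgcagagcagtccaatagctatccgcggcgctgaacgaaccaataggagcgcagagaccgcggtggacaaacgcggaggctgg
Mcm6: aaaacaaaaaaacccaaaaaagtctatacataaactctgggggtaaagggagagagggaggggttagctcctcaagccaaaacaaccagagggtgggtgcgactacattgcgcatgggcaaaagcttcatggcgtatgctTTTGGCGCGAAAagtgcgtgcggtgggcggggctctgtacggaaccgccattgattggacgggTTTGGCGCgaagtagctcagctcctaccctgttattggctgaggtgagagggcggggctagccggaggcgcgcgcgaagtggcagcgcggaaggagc
Pola1: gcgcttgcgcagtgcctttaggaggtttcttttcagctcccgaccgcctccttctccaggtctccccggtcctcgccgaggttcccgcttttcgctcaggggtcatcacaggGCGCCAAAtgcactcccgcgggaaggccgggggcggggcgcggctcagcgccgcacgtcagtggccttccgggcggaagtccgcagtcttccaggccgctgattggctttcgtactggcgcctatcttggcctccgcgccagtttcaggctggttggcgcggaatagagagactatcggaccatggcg
Pold3: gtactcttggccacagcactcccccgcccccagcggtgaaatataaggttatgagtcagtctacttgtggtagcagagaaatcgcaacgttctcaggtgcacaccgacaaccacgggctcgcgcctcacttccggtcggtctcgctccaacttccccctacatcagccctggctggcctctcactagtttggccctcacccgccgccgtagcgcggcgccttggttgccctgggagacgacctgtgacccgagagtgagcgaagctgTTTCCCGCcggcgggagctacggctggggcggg
The matches of Mcm5 overlap each other, as do 2 of the 3 matches of Mcm6. No E2F-like match in these 5 windows overlaps a KLF-like one, and Mcm5 holds no KLF-like match. The windows of Mcm2, Mcm10 and Pcna held no E2F-like match. Among the genes with a listed role, 14 of 18 with an E2F-like match and 28 of 38 without one had higher values in knockout, with median differences of 0.08 and 0.11 log2 units. A match describes letters in the window and does not show binding.

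The DNA replication genes showed small differences between knockout and wild type, most of them toward higher values in knockout and none past the adjusted threshold. Of 139 genes 87 (62.6%) had higher values in knockout and 52 lower, against 44.1% higher among all transcript clusters, and the median difference was 0.05 against -0.02 log2 units over all transcript clusters. No transcript cluster of 28944 passed (limma, Benjamini-Hochberg, 0% at adjusted p under 0.05, lowest adjusted p = 0.907), and the smallest adjusted p of a replication gene was 0.916. At an unadjusted p under 0.05, 6 replication genes had higher values in knockout, against 1.45% of all transcript clusters, and 0 had lower values, against 2.63%. These 6, which are Mcm10, Pold3, Pola1, Wrn, Polk and Polg2, are 4.32% of the genes, near the 4.08% of all transcript clusters in either direction. The count was 3 without wild-type replicate 3, all higher in knockout, against 3.15% of all transcript clusters in that fit. It was 10 without wild-type replicate 2 (9 higher and 1 lower), against 4.96%, and 11 without wild-type replicate 6 (10 and 1), against 5.64%. The split was 5 higher and 3 lower without knockout replicate 4, against 3.78% of all transcript clusters. It was 3 and 2 without wild-type replicate 4, against 2.87%. The knockout and wild-type arrays did not overlap in Mcm10 and Pold3 (1.44% of the genes), against 0.985% of all transcript clusters (0.259% higher and 0.726% lower in knockout). Without knockout replicate 2 the number without overlap was 5 (3.6%), against 3.08% of all transcript clusters, and without knockout replicate 4 it was 4 (2.88%), against 2.59%. Without knockout replicate 5 it was 6 (4.32%), against 4.28%, and without wild-type replicate 5 it was 4 (2.88%), against 1.44%. The split of all transcript clusters at unadjusted p under 0.05 depended on the scaling: 420 were higher and 761 lower as deposited, and 695 were higher and 445 lower after median centring.

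Differences ran from -0.39 in Lig4, the DNA ligase of end joining, to 0.52 in Polh, a translesion polymerase. In 62 genes they were under 0.1 log2 units in size, and in 1 gene over 0.5. The 95% interval of the difference excluded a 2-fold change in either direction for 131 of the 139 genes (94.2%), against 94.5% of all transcript clusters. In bulk RNA, a change in the share of cells in S phase and a change in transcript per cell cannot be told apart. Among the 70 genes with a listed role 50 (71.4%) had higher values in knockout, with a median difference of 0.10, and among the other 69 genes 37 had higher values, with a median of 0.02. For the genes with a listed role the median was 0.04 without wild-type replicate 5 and 0.14 without wild-type replicate 6. To set aside the dimmest signals, the transcript clusters with means above the median of 5.99 were counted apart. Of these 48.2% were higher in knockout, against 73.5% of the 68 such genes with a listed role. The 95th percentiles of the negative-control probes were 8.76 to 9.34, so this cut does not clear their upper range. Without the 3 arrays that carry both Xist and Y-linked signal, 87 of the 139 genes had higher values in knockout, against 41.4% of all transcript clusters. In that fit 8 (7 higher and 1 lower) were at unadjusted p under 0.05, against 6.39% of all transcript clusters, and 19 did not overlap, against 15.4%. The arrays left were knockout replicates 3 and 4, with Xist alone, and wild-type replicates 2 to 5, of which only replicate 5 carried Xist. Genotype and sex-linked signal were thus more closely tied in this subset, which cannot tell them apart.

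Markers of myeloid cells also had mostly higher mean values in knockout. Of 10 neutrophil granule genes 9 were higher, with a median difference of 0.14, of 8 monocyte and macrophage genes 6, with a median of 0.26, and of 8 mast cell and basophil genes 6, with a median of 0.16, and 0 in each list were at unadjusted p under 0.05. The mean of the neutrophil granule genes was 6.28, 7.30, 6.46 and 7.07 in knockout, against 6.34, 6.63, 6.53, 6.57 and 6.53 in wild type. The monocyte list averaged 5.72 to 6.81 in knockout and 5.64 to 6.11 in wild type, and the mast cell list 5.75 to 6.81 in knockout and 5.55 to 6.31 in wild type, each highest in knockout replicate 3. In the replication genes with a listed role the same array had the highest mean of the 9, at 7.98. Wild-type replicate 2 was nearly level with it, at 7.97, and had the lowest monocyte and mast cell means of the 9 arrays. In the separately normalized pair 10 of 10 neutrophil granule, 5 of 8 monocyte and 8 of 8 mast cell genes were higher in knockout. Of the replication genes with a listed role 26 of 70 were. The part of myeloid cells in the level of the replication genes was not tested.

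**Figure D1:**
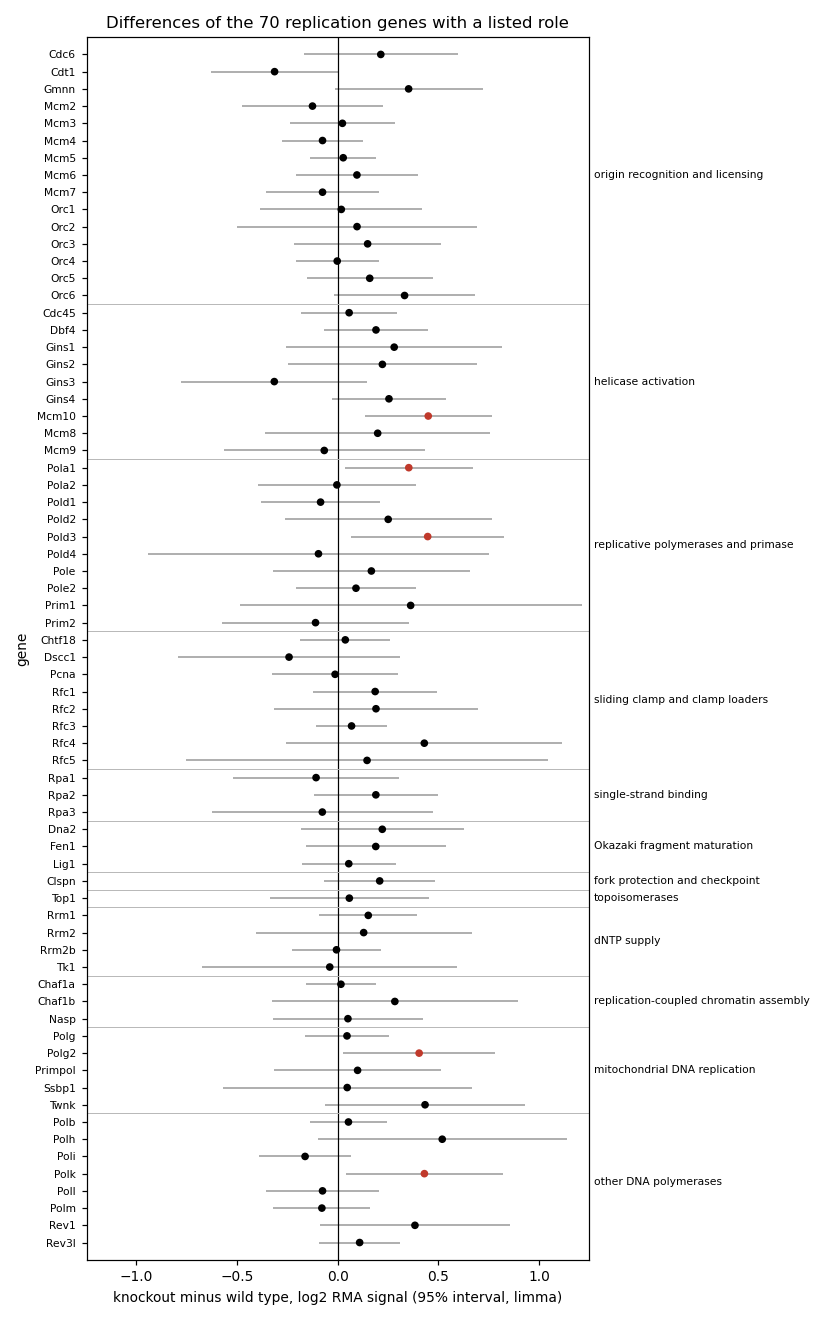
Difference between knockout and wild type, knockout minus wild type in log2 RMA signal (x axis), for the 70 replication genes with a listed role (y axis), grouped by role. Points are limma estimates from 4 knockout and 5 wild-type arrays, bars are 95% intervals, and red marks the 5 genes at unadjusted p under 0.05, which are Mcm10, Pola1, Pold3, Polg2 and Polk.

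Genes of origin recognition and licensing were centred near 0, with 10 of 15 higher and 5 lower in knockout and a median difference of 0.03 log2 units. The 6 helicase subunits differed by -0.13 to 0.10. Mcm2 was at 7.39, 7.64, 7.39 and 7.94 in knockout, against 7.81, 8.06, 7.63, 7.40 and 7.66 in wild type, a difference of -0.13 (95% interval -0.47 to 0.22). Mcm6 was at 9.88, 9.93, 9.91 and 9.996 in knockout, against 10.15, 9.95, 9.63, 9.46 and 9.97 in wild type, a difference of 0.10 (-0.21 to 0.40). For both genes the wild-type arrays span the knockout values or nearly so. Mcm7 was at 8.08, 8.79, 8.53 and 8.52 in knockout, against 8.53, 8.56, 8.53, 8.61 and 8.55 in wild type, so that knockout replicates 2 and 3 lay below and above a narrow wild-type range, and the difference of -0.08 became 0.06 without knockout replicate 2. Mcm5 had the narrowest interval of the subunits, with a difference of 0.03 (-0.14 to 0.19). It was at 8.50 in 3 knockout arrays and 8.56 in the other, against 8.34 to 8.61 in wild type. Mcm3 differed by 0.02, from 8.19 to 8.61 in knockout and 8.25 to 8.64 in wild type, and Mcm4 by -0.08, from 8.33 to 8.58 in knockout and 8.42 to 8.72 in wild type. The intervals of all 6 subunits exclude a 2-fold change.

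Genes that load the helicase or control its loading differed by values on both sides of 0. Cdt1, the helicase loader, was at 5.88, 6.24, 6.34 and 6.24 in knockout, against 6.41, 6.71, 6.78, 6.25 and 6.30 in wild type. Its difference was -0.31 ± 0.14 (SE), with limma unadjusted p = 0.0507 and adjusted p = 0.916, and knockout replicate 4 lay above the lowest pair of wild-type arrays. Gmnn, which encodes geminin, the inhibitor of Cdt1, was at 7.88, 7.98, 8.45 and 7.83 in knockout, against 7.83, 7.93, 7.39, 7.42 and 7.83 in wild type. The highest value, in knockout replicate 4, carried part of its difference of 0.35 ± 0.16, which was 0.21 without that array. Cdc6, the ATPase that brings the helicase to the origin complex, was at 8.02, 7.22, 7.30 and 7.23 in knockout, against 7.30, 7.16, 7.30, 6.99 and 7.39 in wild type. Its difference of 0.21 rested on knockout replicate 2 and was 0.02 without it. Orc1, the largest subunit of the origin recognition complex, was at 6.05, 6.86, 7.04 and 6.75 in knockout, against 6.72, 6.70, 6.70, 6.45 and 6.70 in wild type, with the lowest of the 9 values in knockout replicate 2. Its difference was 0.02 and became 0.23 without that array. Orc6 had the largest difference of the complex, at 0.33 (-0.02 to 0.68), with 8.32 to 8.63 in knockout and 7.63 to 8.40 in wild type. Orc2, Orc3, Orc4 and Orc5 differed by 0.10, 0.15, -0.002 and 0.16.

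Helicase activation held the gene with the smallest p. Mcm10, a scaffold that binds the helicase and polymerase alpha, was at 7.71, 7.51, 7.73 and 7.50 in knockout, against 7.43, 6.76, 7.04, 7.18 and 7.41 in wild type. Every knockout array lay above every wild-type array, with a gap of less than 0.1 between knockout replicate 5 and wild-type replicate 2. The difference was 0.45 ± 0.14 (SE), 1.37-fold, with limma unadjusted p = 0.0104 and adjusted p = 0.916, and it lay between 0.35 without wild-type replicate 3 and 0.52 without wild-type replicate 2. In the 2-array table Mcm10 had signals of 7.59 in knockout and 7.64 in wild type. Of the 9 genes of this group 7 had higher values in knockout, with a median of 0.20. The GINS subunits Gins1, Gins2 and Gins4 differed by 0.28, 0.22 and 0.25 and Gins3 by -0.31, so that the subunits of 1 complex did not share a direction. Gins3 was at 7.01 to 7.52 in knockout and 7.23 to 8.17 in wild type. Cdc45 differed by 0.06, and Dbf4, the regulatory subunit of the kinase that fires origins, by 0.19.

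Among the replicative polymerases and primase 6 of 10 genes had higher values in knockout, with a median of 0.13. Pold3, an accessory subunit of polymerase delta, was at 9.94, 9.42, 9.40 and 9.40 in knockout, against 9.34, 8.99, 9.22, 8.65 and 9.27 in wild type. The groups did not overlap, and knockout replicate 2 stood above all other arrays. Its difference was 0.45 ± 0.17 (SE), with limma unadjusted p = 0.0256 and adjusted p = 0.916, and it was 0.31 without that array. Pola1, the X-linked catalytic subunit of polymerase alpha, was at 9.70, 9.42, 9.21 and 9.12 in knockout, against 9.24, 8.91, 8.72, 9.06 and 9.12 in wild type. Knockout replicate 5 lay below wild-type replicate 2. The difference was 0.35 ± 0.14, with limma unadjusted p = 0.0327 and adjusted p = 0.916, and it was 0.24 without knockout replicate 2. Among the catalytic subunits of the other polymerases Pold1 differed by -0.08 (-0.38 to 0.21) and Pole by 0.17 (-0.32 to 0.66), or by 0.33 without knockout replicate 4. Pold1 was at 7.15, 7.36, 7.19 and 7.63 in knockout, against 7.41, 7.39, 7.19, 7.73 and 7.36 in wild type. Pole was at 7.88, 7.95, 7.27 and 7.90 in knockout, against 8.08, 7.53, 7.22, 7.19 and 7.88 in wild type, so that both groups held arrays near 7.2 and arrays near the top of the range. Prim1, the small primase subunit, was at 8.80 to 9.26 in knockout, whereas wild type split into 9.40, 9.30 and 9.27 in replicates 2, 3 and 6 and 7.997 and 7.64 in replicates 4 and 5. Its difference of 0.36 had an interval of -0.49 to 1.21. Pold4, the smallest subunit of polymerase delta, was at 5.73 in knockout replicate 2 and at 6.73 to 7.78 in the other 8 arrays.

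Pcna, the sliding clamp, was nearly level. It was at 11.98, 11.69, 11.81 and 12.02 in knockout, against 12.18, 11.86, 11.83, 11.49 and 12.07 in wild type, a difference of -0.01 (-0.33 to 0.30). The highest and the lowest value were both in wild type, in replicates 2 and 5. The clamp loader subunits Rfc1, Rfc2, Rfc3, Rfc4 and Rfc5 differed by 0.19, 0.19, 0.07, 0.43 and 0.15. Rfc4 was within 7.63 to 7.76 in knockout and ran from 6.28 in wild-type replicate 5 to 7.999 in wild-type replicate 2, with an interval of -0.25 to 1.12. Rfc5 varied most, with 7.55, 8.99, 9.54 and 8.58 in knockout, against 8.57, 7.74, 8.28, 9.10 and 8.91 in wild type. Chtf18 and Dscc1, of the alternative loader used in cohesion, differed by 0.04 and -0.24.

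Rpa1, the large subunit of the single-strand binding protein RPA, was at 7.42, 7.98, 7.78 and 7.72 in knockout, against 7.95, 7.36, 7.78, 8.32 and 7.76 in wild type, a difference of -0.11 (-0.52 to 0.31). Rpa2 and Rpa3 differed by 0.19 and -0.08. The mean of the 3 subunits was highest of the 9 arrays in wild-type replicate 5, at 8.30, where the means of the licensing, polymerase and clamp genes were lowest. The array of lowest mean was wild-type replicate 3 for helicase activation and nucleotide supply and knockout replicate 4 for Okazaki fragment maturation.

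**Figure D2:**
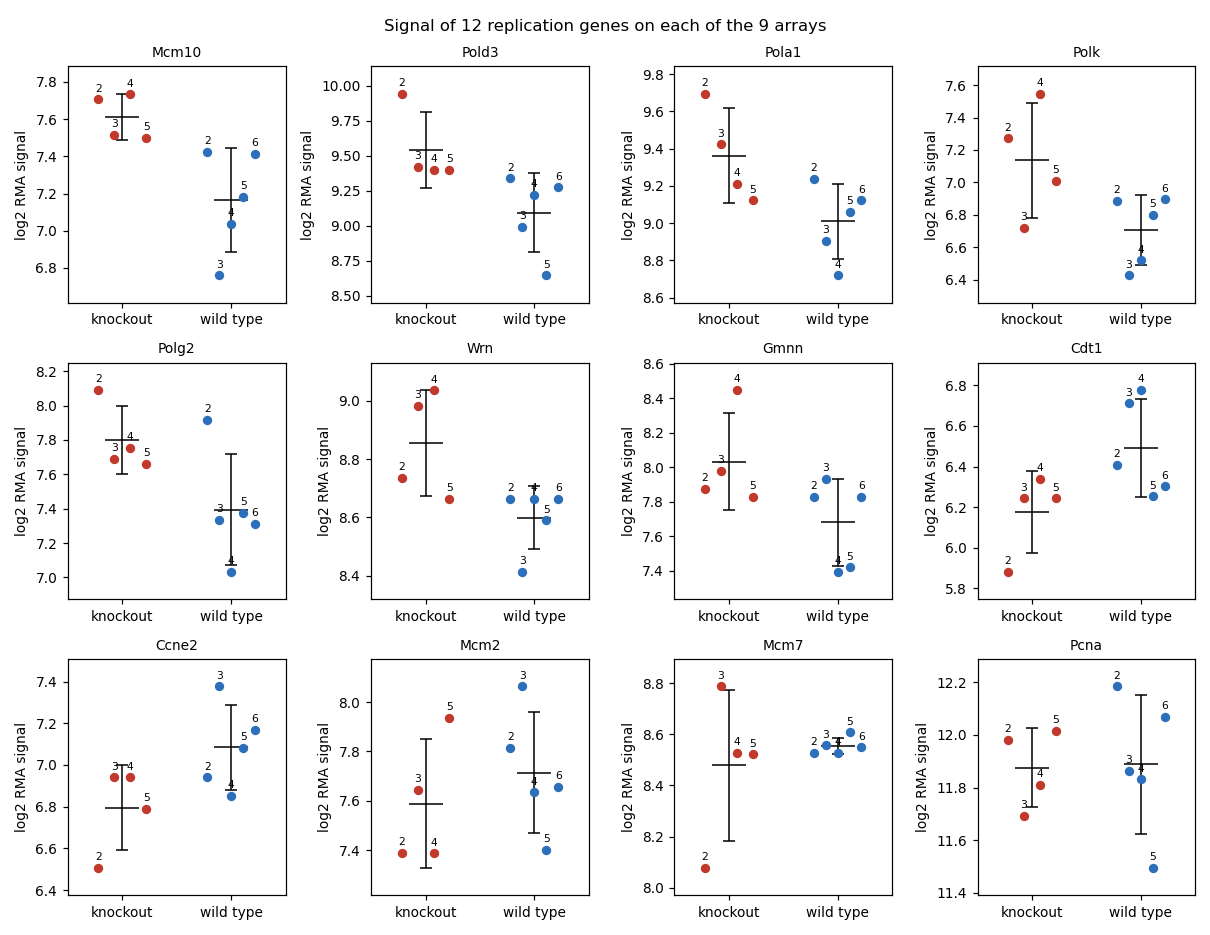
Log2 RMA signal (y axis) of 12 replication genes in the knockout and wild-type arrays (x axis), with replicate numbers beside the points and mean ± SD as lines (n = 4 and n = 5). Groups do not overlap in Mcm10 and Pold3, whereas Pcna, Mcm2 and Mcm7 overlap widely.

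Genes of Okazaki fragment maturation, which removes primers and joins the lagging strand, differed by 0.22 (Dna2), 0.19 (Fen1) and 0.06 (Lig1). Clspn, a fork protection and checkpoint protein, differed by 0.21 and Top1, which relieves the strain ahead of the fork, by 0.06. Genes of nucleotide supply were split, with Rrm1 and Rrm2, the subunits of ribonucleotide reductase, at 0.15 and 0.13 and Rrm2b and Tk1 at -0.01 and -0.04. The Tk1 value came from the brighter of 2 annotated rows. The identifier of that row lies away from those of other genes on chromosome 11, and the row may read a copy elsewhere. Chromatin assembly genes differed by 0.02 (Chaf1a), 0.28 (Chaf1b) and 0.05 (Nasp). The difference of Chaf1b followed knockout replicate 5, at 7.78, where the other knockout arrays were at 6.44 to 6.76 and wild type at 6.32 to 7.14.

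The 5 annotated genes on the role list for mitochondrial DNA replication had higher mean values in knockout, with a median difference of 0.10. Among the 6 genes that carry the annotation term for this process 4 were higher in knockout, and Rrm2b and Dnaja3 differed by -0.01 and -0.09. Polg2, the accessory subunit of the mitochondrial polymerase, was at 8.09, 7.69, 7.75 and 7.66 in knockout, against 7.92, 7.34, 7.03, 7.38 and 7.31 in wild type. Wild-type replicate 2 lay among the knockout arrays. The difference was 0.40 ± 0.17 (SE), with limma unadjusted p = 0.0384 and adjusted p = 0.916, and it was 0.31 without knockout replicate 2. Twnk, the mitochondrial helicase, differed by 0.43 (-0.06 to 0.93), with 6.24 to 7.20 in knockout and 5.82 to 6.57 in wild type. The catalytic subunit Polg and the single-strand binding protein Ssbp1 each differed by 0.05. For Ssbp1 the value came from the brighter of 2 annotated rows. The identifier of that row lies away from those of other genes on chromosome 6, and the row may read a copy elsewhere.

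Of the repair and translesion polymerases 5 of 8 had higher values in knockout. Polk, a translesion polymerase, was at 7.27, 6.72, 7.55 and 7.01 in knockout, against 6.89, 6.43, 6.52, 6.80 and 6.90 in wild type, a difference of 0.43 ± 0.17 (SE) with limma unadjusted p = 0.0335 and adjusted p = 0.916. Knockout replicate 3 lay within the wild-type range, and the difference was 0.29 without knockout replicate 4. Polh had the largest difference of all 139 genes, 0.52 (-0.10 to 1.14), and also a wide spread, with 6.78 to 7.60 in knockout and 6.17 to 7.38 in wild type. Rev1 and Rev3l differed by 0.38 and 0.11. Poli, a close relative of Polh, was at 7.94, 7.47, 7.70 and 7.84 in knockout, against 7.97, 7.96, 7.82, 7.79 and 7.95 in wild type, a difference of -0.16 (-0.39 to 0.07).

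Beyond the role lists, Wrn, the helicase and exonuclease lost in Werner syndrome, was the gene of smallest p. It was at 8.74, 8.98, 9.04 and 8.66 in knockout, against 8.66, 8.41, 8.66, 8.59 and 8.66 in wild type, with 3 wild-type arrays level with the lowest knockout array. The difference was 0.26 ± 0.10 (SE), with limma unadjusted p = 0.0288 and adjusted p = 0.916, and it was 0.20 without knockout replicate 4. Wrnip1, which encodes a protein that binds Wrn, differed by -0.13 ± 0.07, with 7.62, 7.74, 7.71 and 7.77 in knockout, against 7.77, 7.95, 7.81, 7.90 and 7.76 in wild type. Blm, the related helicase of Bloom syndrome, differed by 0.33 (-0.21 to 0.88), and Hus1, a subunit of the checkpoint clamp, by 0.49 (-0.08 to 1.05). Ccne2, a cyclin of S phase entry, was at 6.51, 6.94, 6.94 and 6.79 in knockout, against 6.94, 7.38, 6.85, 7.08 and 7.17 in wild type, a difference of -0.29 ± 0.13 with limma unadjusted p = 0.0517 and adjusted p = 0.916. Ccne1, its paralog, differed by 0.04. E4f1, a transcription regulator, was at 6.70, 6.91, 6.84 and 6.94 in knockout, against 7.01, 6.91, 7.21, 6.97 and 6.88 in wild type, a difference of -0.15. Cdc42, a small GTPase, was at 10.31, 10.18, 10.33 and 10.32 in knockout, against 10.33, 10.53, 10.37, 10.28 and 10.50 in wild type, a difference of -0.12.

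Some genes with the annotation had little or no signal in these cells. In 11 genes at least 1 of the 9 arrays lay below the median of its negative controls, and in Il6, Stra8, Mas1, Nfib, Npm2 and Ereg all 9 did. Among the genes above that median on all 9 arrays, Hmgb1, a chromatin protein with 32 annotated rows that its pseudogenes may share, differed by -0.02. Cdk1, the mitotic kinase, differed by 0.11. As for Tk1 and Ssbp1, the rows chosen for Hmgb1, Npm1, Phb and Rmi1 have identifiers away from those of other genes on their chromosomes. These rows may also read copies elsewhere.

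Dntt had the widest range of the 139 genes, at 3.34 log2 units. It encodes terminal transferase, which adds nucleotides without a template at the joints of antigen receptor genes and marks early lymphoid progenitors. It was at 8.79, 6.78, 7.37 and 8.85 in knockout, against 9.26, 6.94, 7.86, 6.05 and 9.39 in wild type. The 4 arrays at 8.79 and above were knockout replicates 2 and 5 and wild-type replicates 2 and 6, so that the split ran across the genotypes and the difference was 0.05 (-1.63 to 1.73). These were also the 4 arrays with the highest Hbb-b1. The mean of 12 B cell markers was 5.86, 5.48, 5.45 and 5.87 in knockout, against 6.09, 5.51, 5.54, 5.63 and 6.74 in wild type, highest in the same 4 arrays, and 2 of the 12 had higher and 10 lower values in knockout. Vpreb1, the surrogate light chain of early B lineage cells, was at 9.85 and 10.12 in knockout replicates 2 and 5 and at 10.16 and 11.62 in wild-type replicates 2 and 6, and at 5.93 to 7.21 in the other 5 arrays. The part of other cells in the level of Dntt was not tested.

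**Figure D3:**
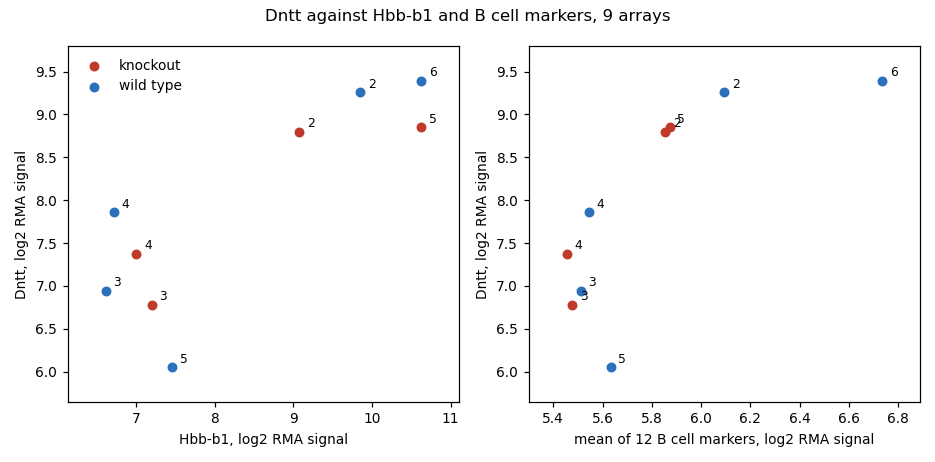
Dntt signal (y axis, log2 RMA) against Hbb-b1 (left, x axis) and the mean of 12 B cell markers (right, x axis), both in log2 RMA signal, in 4 knockout and 5 wild-type arrays with replicate numbers. Knockout replicates 2 and 5 and wild-type replicates 2 and 6 lie at 8.79 and above in Dntt.

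The mean of the replication genes with a listed role varied more among the wild-type than among the knockout arrays, and the spread was not tested. Not all role groups shared this. The SD of the Mcm2 to Mcm7 mean was 0.10 in both genotypes. It was 0.23 in knockout against 0.14 in wild type for Okazaki fragment maturation, and 0.25 against 0.21 for chromatin assembly. The mean of the 70 genes with a listed role was 7.88, 7.98, 7.85 and 7.96 in knockout (mean 7.92 ± 0.06, SD, n = 4), against 7.97, 7.75, 7.72, 7.64 and 7.95 in wild type (mean 7.81 ± 0.15, SD, n = 5). Wild-type replicates 2 and 6 lay among the knockout arrays, and replicates 3, 4 and 5 lay below them all. Wild-type replicate 5 had the lowest of the 9 values in 21 of the 70 genes (30%), against 10.6% of all transcript clusters and 18% of those with means above the median, and wild-type replicates 3 and 4 had it in 12 genes each (17.1%), against 14.1% and 10.8% of the transcript clusters above the median. Over all transcript clusters above the median the means were 7.59, 7.63, 7.61 and 7.70 in knockout, against 7.66, 7.59, 7.60, 7.55 and 7.69 in wild type, a narrower range in which wild-type replicates 2 and 6 were again high and replicate 5 lowest. Without wild-type replicate 5, 78 of the 139 genes had higher values in knockout, against 46.9% of all transcript clusters, and the median difference was 0.03.

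**Figure D4:**
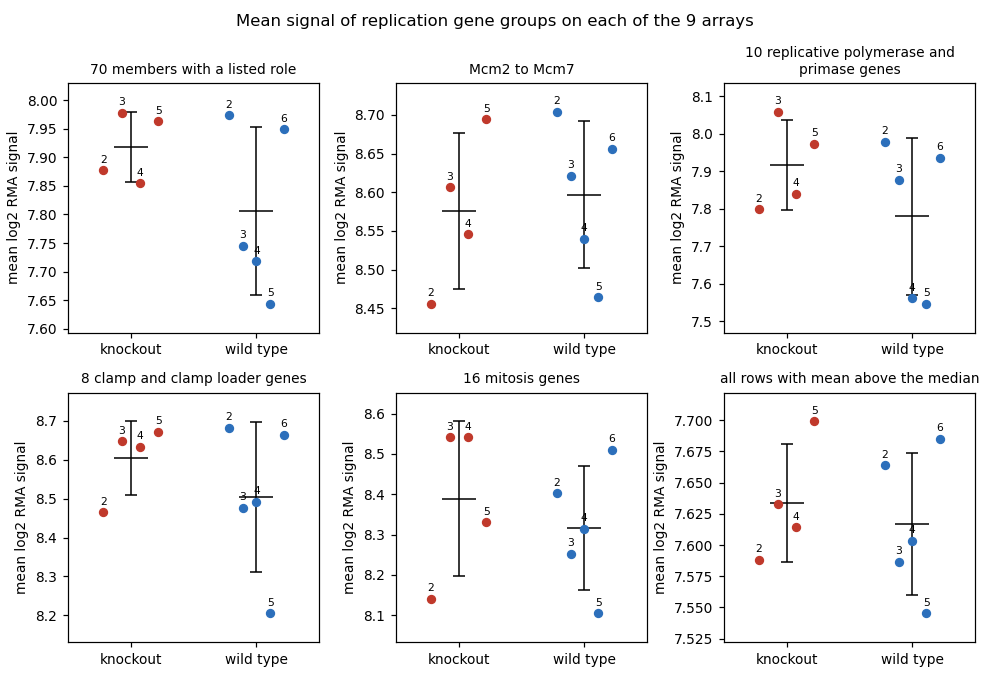
Mean log2 RMA signal (y axis) on each array by genotype (x axis) of 6 sets: the 70 replication genes with a listed role, Mcm2 to Mcm7, the polymerase and primase genes, the clamp genes, 16 mitosis genes and all transcript clusters above the median. Points carry replicate numbers and lines are mean ± SD (n = 4 and n = 5); in the first set wild-type replicates 3 to 5 lie below all knockout arrays, at 7.75, 7.72 and 7.64.

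The role groups did not share 1 order of arrays. The mean of Mcm2 to Mcm7 was 8.46, 8.61, 8.55 and 8.69 in knockout, against 8.70, 8.62, 8.54, 8.46 and 8.66 in wild type, so that knockout replicate 2 was as low as wild-type replicate 5. The mean of the 10 polymerase and primase genes was 7.80, 8.06, 7.84 and 7.97 in knockout, against 7.98, 7.88, 7.56, 7.55 and 7.94 in wild type, with wild-type replicates 4 and 5 apart from the rest. The clamp genes averaged 8.46, 8.65, 8.63 and 8.67 in knockout, against 8.68, 8.48, 8.49, 8.20 and 8.66 in wild type. Single genes varied more than these means: 42 of the 139 ranged over more than 1 log2 unit across the 9 arrays. In 65 genes (46.8%) at least 2 arrays had exactly the same signal, against 57.5% of all transcript clusters.

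**Figure D5:**
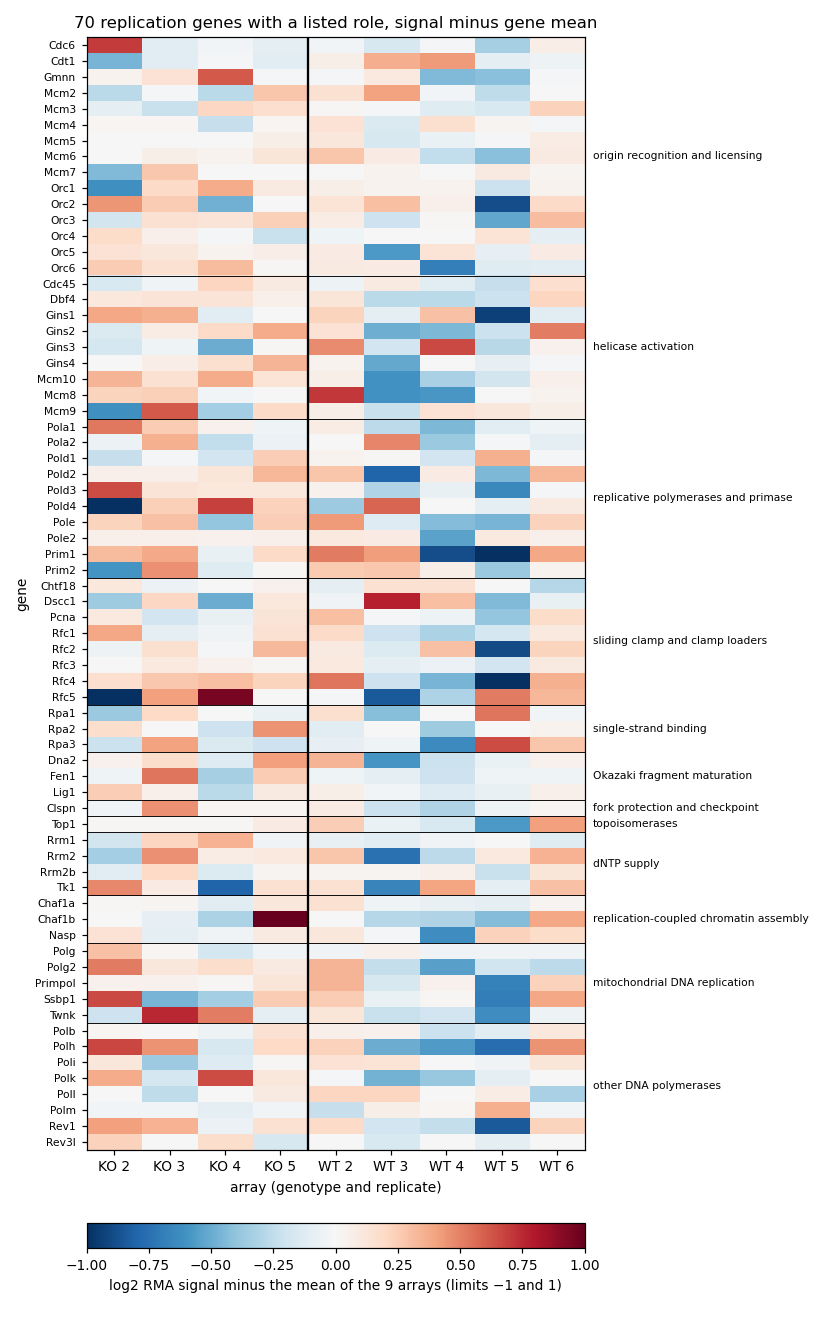
Log2 RMA signal minus the mean of the 9 arrays (colour, limits -1 and 1) for the 70 replication genes with a listed role (y axis, by role) on the knockout and wild-type arrays (x axis). Wild-type replicates 3, 4 and 5 hold the lowest value in 12, 12 and 21 of the 70 genes.

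Lists of cell cycle genes were set beside the replication genes, with which they share Cdk1, Ccne1 and Ccne2. Of 16 mitosis genes 12 had higher values in knockout, or 11 of 15 without Cdk1, and 0 reached an unadjusted p under 0.05. Without knockout replicate 2 the count was 15 of 16. Their mean was 8.14, 8.54, 8.54 and 8.33 in knockout, against 8.40, 8.25, 8.31, 8.10 and 8.51 in wild type, and Mki67, the proliferation marker, differed by 0.08. Of 11 G1/S cyclin and E2F genes 9 had higher values, or 8 of 9 without the shared pair, and 0 reached that p, with E2f1 at -0.05 and E2f3 at 0.47. The 5 inhibitors of cyclin-dependent kinases had lower mean values in knockout, with Cdkn1a at -0.31 and Cdkn1b at -0.14, and 0 reached that p. Their mean was 6.27 in knockout replicate 2 and 6.91 to 7.06 in the other knockout arrays, against 6.78 to 7.24 in wild type. Without knockout replicate 2, 2 of the 5 were higher and the median difference was -0.01, and in the separately normalized pair 4 of the 5 were higher in knockout. Of 30 genes on the role lists that the annotation does not include, 20 had higher and 10 lower values in knockout. Cdc7, the catalytic partner of Dbf4, was the 1 gene of these at unadjusted p under 0.05, with 7.47, 8.11, 7.89 and 7.47 in knockout, against 7.47, 7.14, 7.22, 7.43 and 7.47 in wild type and a difference of 0.39.

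In the separately normalized pair the direction was the other one. Of the 139 genes 53 (38.1%) were higher in knockout replicate 1 than in wild-type replicate 1, against 51.3% of all transcript clusters, with a median difference of -0.04, and of the 70 genes with a listed role 26 (37.1%) were higher. The mean of those 70 genes was 8.63 in knockout replicate 1 and 8.68 in wild-type replicate 1. Pold3 had signals of 9.43 in knockout and 9.52 in wild type, Pola1 at 10.06 in knockout and 10.15 in wild type, and Pcna at 12.03 in both. Of 16 mitosis genes 1 was higher in knockout replicate 1. With 1 array of each genotype this pair has no replicate check. With all 11 arrays and a term for the table, 90 of the 139 genes had higher values in knockout, against 45.4% of all transcript clusters. In that fit 5 (4 higher and 1 lower) were at unadjusted p under 0.05, against 3.25% of all transcript clusters.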

How the data were processed

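Per the file headers and the submitters' processing notes, the authors deposited log2 RMA gene-level signals made with Affymetrix Expression Console, in 2 tables normalized separately. A deposited value table holds log2 signals of all 11 arrays. Each of its columns equalled 1 RMA column within 5e-05 and tied the columns of each genotype to replicate numbers, since numbers in the column names differ from the sample titles. Of 35556 rows, 6612 control rows were left out. The files give positions on NCBIM37, and symbols were updated through RefSeq on GRCm38.p6 (22169 rows by accession, 626 by synonym), which renamed 15 of the 139 genes.

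Knockout minus wild type was fitted in R 4.3.3 by limma 3.58.1, with two-sided tests from lmFit and eBayes, over all 28944 transcript clusters, with Benjamini-Hochberg adjustment and a threshold of 0.05. The fit was tested on simulated data. The genes, role lists and rule for named genes were chosen with earlier results of these data known. The rule took 15 core genes and, per direction, the 6 of smallest p above the median signal. Other genes were named as members of their role group, and Blm, Hus1, Lig4, Ccne1, Cdk1, Hmgb1, Dntt and the genes near background after their values were seen. The labels do not say that samples are separate animals, so the spread behind the p-values is that between samples and may be technical. The number of arrays limits the precision. Figures were drawn with matplotlib 3.10.9.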

Additional observations from a re-analysis of the deposited data

Results flagged for a closer look

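A screen of 82 sets of values within a genotype (4 or 5 arrays) found 9 in which 1 array stood far from the rest, where chance gives about 1 in 20. Knockout replicate 2 stood high in Pold3, at 9.9447, and in Cdc6, at 8.023. Knockout replicate 4 was low in Mcm4, at 8.332, and in Pole, at 7.269. Knockout replicate 3 was low in Cdc42, at 10.1839, and high in Clspn, the 1 fork protection gene of the annotation, at 7.9241. Knockout replicate 5 was high in Mcm5, at 8.5589, and in Top1, the 1 topoisomerase, at 9.8772. Wild-type replicate 5 was low in Orc1, at 6.4497. In Mcm4, Mcm5 and Top1 the other 3 knockout arrays had exactly the same signal, so that a small gap was enough.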

How the results depend on the processing

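The count of transcript clusters past the adjusted threshold was 0 under all alternatives, and the methods' t-test gave 1150 at unadjusted p under 0.05 and 0 after Benjamini-Hochberg adjustment. The 6 replication genes at unadjusted p under 0.05 became 1 with all 11 arrays and no table term, against 0.608% of all transcript clusters. They became 12 after median centring, against 3.94%, and 10 with array weights (8 higher and 2 lower in knockout), against 4.28%. With 1 array left out they were 3 to 11. The 2 genes without overlap became 0 with all 11 arrays, against 0.0173% of all transcript clusters. The table term does not enter this count. The arrays normalized apart had higher median signals (6.43 and 6.40, against 5.93 to 6.03), so this 0 says little about single genes. Without the arrays carrying both Xist and Y-linked signal the number was 19 (13.7%), against 15.4% of all transcript clusters. That alternative was added after the data were seen and leaves fewer arrays. With 1 array left out the number was 2 to 6. The 87 genes higher in knockout, against 44.1% of all transcript clusters, were 80 with array weights, against 45.7%, and 100 after median centring, against 54.9%. They were 50 when the 70 genes with a listed role alone were counted. With 1 array left out they were 78 to 93, against 41.8% to 46.9% of all transcript clusters. The median difference was 0.02 to 0.10 over the alternatives. The cause of these shifts was not tested. Of 550 comparisons of a named gene with an alternative, 26 turned the sign, in 7 genes and 0 past the adjusted threshold. Mcm5 was -0.00399 with all 11 arrays and the table term, -0.0302 after quantile normalization, -0.00770 with array weights and -0.00967 to 0.0585 with 1 array left out. Pcna was 0.0214 after median centring, 0.0303 after quantile normalization and -0.111 to 0.0613 with 1 array left out, Mcm3 -0.0325 after quantile normalization and -0.0403 to 0.101 with 1 array left out, and Pole -0.0350 with array weights. With 1 array left out, Orc1 was -0.103 to 0.226, Mcm7 -0.178 to 0.0586 and Rpa1 -0.226 to 0.0147; without the arrays carrying both signals Mcm7 was 0.103 and Rpa1 0.0299. Quantile normalization gave 511 transcript clusters higher and 705 lower at unadjusted p under 0.05.

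The replicate number was also fitted as a replicate block. Same-numbered samples did not deviate together by their titles (correlations -0.24 to 0.13) or their descriptions (-0.05 to 0.40), so the numbers were not taken to pair the samples. The block gave 11 genes at unadjusted p under 0.05 with title numbers, against 5.27% of all transcript clusters, and 15 with description numbers, against 5.80%, with 0 past the adjusted threshold, and Pcna at 0.0321 and 0.0613.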
